A study of Pinus pinaster with 4 samples.

Results

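Contigs that were expressed in the needles of both maritime pine provenances but at least 3 times higher in Tamrabta than in Leiria were described in the 4 RNA-Seq libraries. A contig is an assembled transcript sequence of the SustainPineDB reference, and its level is given in CPM, the count per 1000000 counts of a scaled library. The members were chosen by their values in these same libraries: each had at least 1 CPM in all 4 libraries, and the lower of the 2 Tamrabta values was at least 3 times the higher of the 2 Leiria values. Of the 17571 rows of the table, 14597 had at least 1 CPM in every library and 47 of these reached the fold. After 10 contigs listed by name and the 100 rows of highest mean CPM were set aside, which removed 6 and 0 of the 47, 41 members remained, 0.281% of the rows expressed in every library. Because the 4 libraries chose the members, their levels and folds are a description and carry no test.

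The libraries were T3 and T6 from 2 plants of the Tamrabta provenance, from the Moroccan Atlas mountains, and L6 and L7 from 2 plants of the Leiria provenance, from the Portuguese coast. All 4 plants were rooted cuttings, 17 months of age, that grew in pots in 1 greenhouse with fertilised irrigation and were pruned beforehand, and the labels name no treatment. The cuttings came from a clonal collection, and the sources used here do not say whether T3 and T6, or L6 and L7, belong to 1 clone. For a single contig, 2 values against 2 allow no two-sided p under 0.333 in an exact permutation test.

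The recovered counts totalled 40807468 to 49935290 in Tamrabta and 40019608 to 58835449 in Leiria. For the needle label, the 4 rows that the descriptions assign to photosystems, light-harvesting or oxygen-evolving proteins were looked up. All 4 were above 0 in every library, which any green tissue could show, so they do not decide the label. They summed to 3003 and 3912 CPM in Tamrabta, against 5100 and 6821 CPM in Leiria. Described rows were preselected by an array comparison that included these plants, so nothing is read from that difference. The 4 rows whose best match was to a fungus or bacterium summed to 59.7 and 63.1 CPM in Tamrabta and to 61.6 and 66.1 CPM in Leiria, and 0 members were among them. The largest share of these sums came from unigene2249, a bacterial match, at 37.5 and 43.6 CPM in T3 and T6, against 52.1 and 56.3 CPM in L6 and L7. The sums therefore say little about the fungal matches. The fungal match among them with the clearest difference, unigene5149, described as an Aspergillus heat shock protein and singled out after its values were seen, had 11.4 and 3.71 CPM in T3 and T6, against 0.302 and 0.0342 CPM in L6 and L7, so it stood the same way as the members. The L7 value is under the level of 3 counts, 0.0513 CPM. The other Aspergillus match, unigene140716, had 1.07 and 1.36 CPM in T3 and T6, against 0.742 and 1.11 CPM in L6 and L7. The part of fungal RNA and of needle cell composition in the members' levels was not tested, and in whole needles more cells of a type and more RNA per cell cannot be told apart.

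Maritime pine is a conifer whose provenances are populations of different geographical origin. Here they grew side by side in 1 greenhouse and so shared a growing site. Among the members with a description were a polyamine synthesis transcript, an old yellow enzyme, a pair of hydrolase-fold proteins, an O-methyltransferase and a cell cycle regulator. Polyamines are small positively charged molecules made from S-adenosylmethionine and putrescine, old yellow enzymes are flavin-dependent reductases, and O-methyltransferases add methyl groups from S-adenosylmethionine to phenolic compounds such as lignin precursors.

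The members covered a wide range of levels. Their mean Tamrabta level ran between 5.46 and 196 CPM with a median of 19.4 CPM, against a mean Leiria level between 1.10 and 38.1 CPM with a median of 2.88 CPM. The mean Tamrabta level was 50 CPM or more in 12 members, at least 10 but under 50 CPM in 20 and under 10 CPM in 9. Over all 14597 rows the median mean level was 17.9 CPM in Tamrabta and 18.6 CPM in Leiria, so the members' median was near that of the table in Tamrabta and well below it in Leiria. In Leiria, 29 of the 41 members averaged under 5 CPM.

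**Figure D1:**
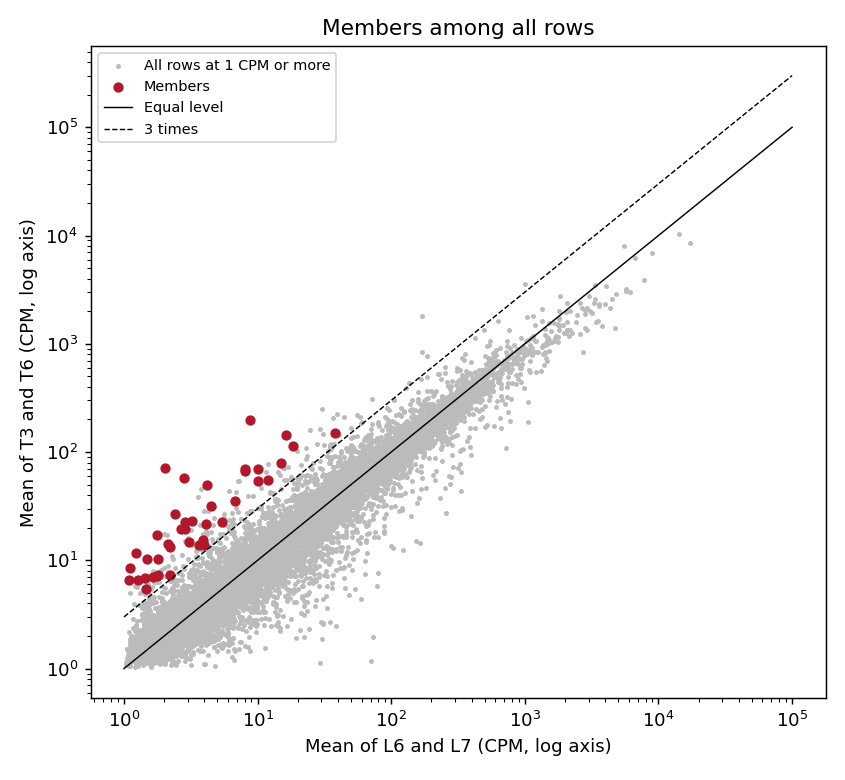
Mean CPM of T3 and T6 (vertical, log axis) against mean CPM of L6 and L7 (horizontal, log axis) for the 14597 rows at 1 CPM or more in every library (grey) and the 41 members (red), with lines of equal level and of a ratio of 3. The members lie above the dashed line by their choice, and their Tamrabta means reach 196 CPM.

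The ratio of the lower Tamrabta to the higher Leiria value was between 3.04 and 9.90 with a median of 3.77. It was 3 to 4 in 27 members, 4 to 5 in 5, 5 to 6 in 5 and above 6 in 4. The provenance means differed by 3.33 to 35.0 times with a median of 6.03. On the log2(CPM + 0.5) scale the median difference, Tamrabta minus Leiria, was 2.39 in the members, beside -0.01 over the 14597 rows. In limma, fitted over all rows of the table, 0 of the 41 members passed an adjusted p under 0.05 with a difference over 1, and the same call was made for 0.0455 percent of all rows in the Tamrabta direction. All 41 had an unadjusted p under 0.05, as did 5.59 percent of all rows in that direction. The edgeR exact test called 41 of 41, where 2.49 percent of all rows were called higher in Tamrabta. DESeq2 called 41, beside 2.6 percent of all rows, and the edgeR quasi-likelihood test called 0, beside 0.00569 percent. Since the members were picked for this contrast, nothing is read from these counts.

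The contig with the widest separation was unigene33609 (the full identifiers carry the prefix sp_v3.0_), for which no description was held. It had 23.7 and 118.7 CPM in T3 and T6, against 1.68 and 2.39 CPM in L6 and L7. Its ratio of 9.90 was set by T3, which stood far below T6 and far above both Leiria plants.
Next, unigene36655 had 27.9 and 86.3 CPM in T3 and T6 and 3.49 and 2.15 CPM in L6 and L7, a ratio of 7.99. The third, unigene45128, was also the most abundant member in Tamrabta, at 96.6 and 295.2 CPM in T3 and T6, against 4.15 and 13.3 CPM in L6 and L7. These 3 contigs shared a pattern in which T6 was at least 3 times T3, so that the distance between the Tamrabta plants was large next to the level in Leiria. For unigene45128 the Leiria plants were also 3.21 times apart, with L7 the higher.

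The other contigs with a large ratio had closer values within Tamrabta. The contig unigene129033 had 11.3 and 9.29 CPM in T3 and T6, against 1.54 and 1.44 CPM in L6 and L7, a ratio of 6.04. The unclassified contig unigene18855 had 7.15 and 9.69 CPM in T3 and T6 and 1.21 and 1.01 CPM in L6 and L7, a ratio of 5.91. The contig unigene33405 had 60.4 and 78.4 CPM in T3 and T6, against 9.68 and 10.3 CPM in L6 and L7, a ratio of 5.84. In these 3 contigs both plants of a provenance lay within 1.36 times of each other. The contig unigene5877 was high in both Tamrabta plants, at 107.9 CPM in T3 and 182.6 CPM in T6, against 11.5 CPM in L6 and 21.4 CPM in L7. The contigs unigene13614 and unigene17128 had ratios of 5.30 and 5.15 at 14.2 to 14.4 CPM in T3, and they parted in T6, where unigene13614 had 38.7 CPM and unigene17128 had 13.9 CPM. The contig unigene1693 was higher in T3 than in T6, at 41.2 and 22.6 CPM, against 4.56 and 4.36 CPM in L6 and L7.

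**Figure D2:**
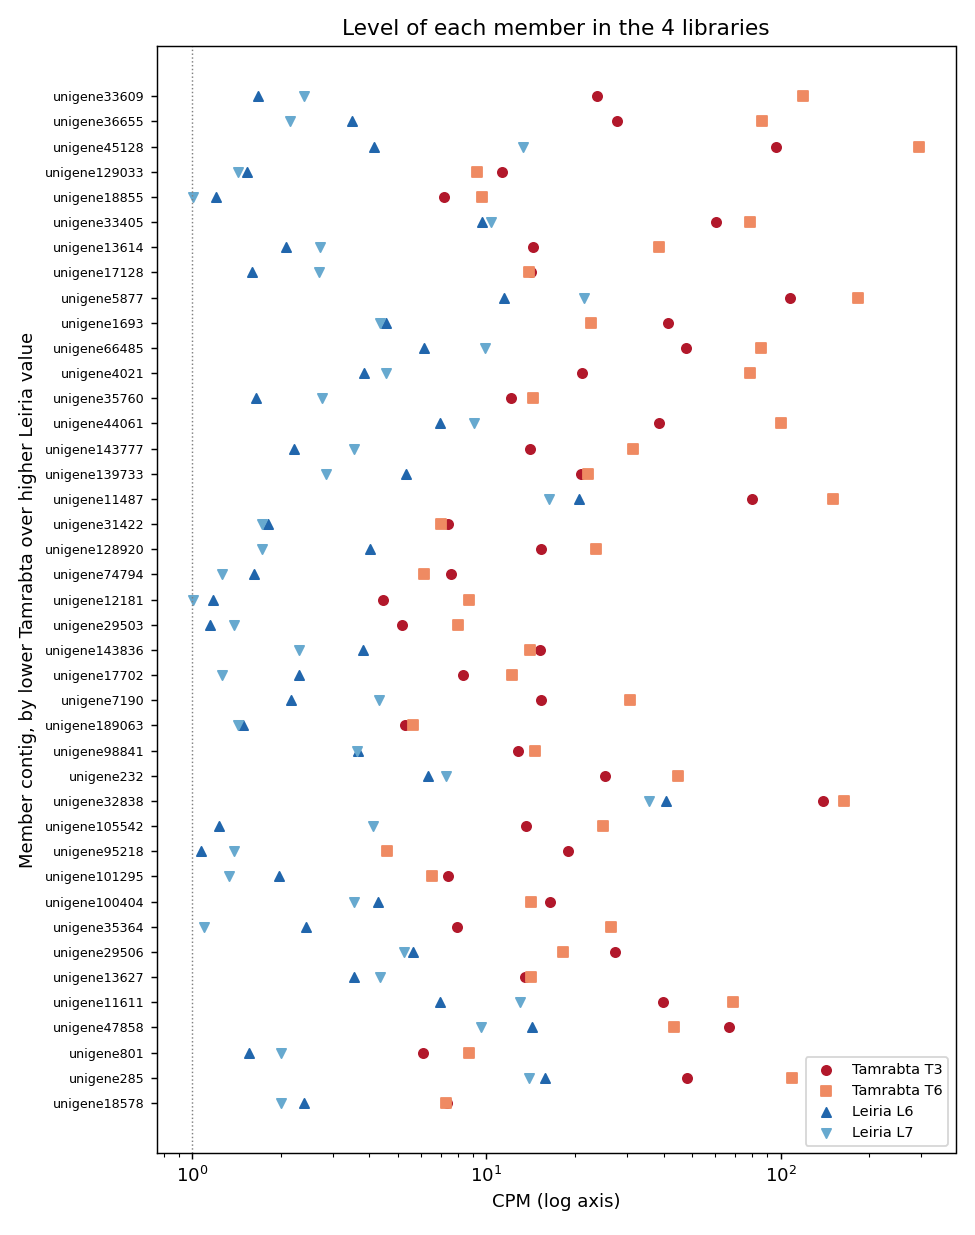
CPM (log axis) of the 41 members, 1 row each, in Tamrabta T3 and T6 (red and orange) and in Leiria L6 and L7 (blue), ordered by the ratio of the lower Tamrabta to the higher Leiria value. The Tamrabta symbols stand to the right of the Leiria symbols in every row by the choice of members, and unigene33609 at the top has the widest gap, a ratio of 9.90.

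Only 8 of the 41 members were listed in the rows of the supplementary annotation held here, and 6 of them had a description in words. In all rows at 1 CPM or more, 964 of 14597 were listed and 764 described. The rows held had been ranked by an array comparison that included these plants, so the share listed says nothing about the members. The other 33 members are given by identifier alone.

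The most abundant described member was unigene11487, an old-yellow-enzyme homolog whose Arabidopsis match is AT1G76690.1. In T3 it had 79.9 CPM and in T6 150.0 CPM, against 20.6 CPM in L6 and 16.3 CPM in L7. Both Tamrabta plants were above both Leiria plants, with means of 115 ± 49.5 CPM in Tamrabta and 18.4 ± 3.04 CPM in Leiria (SD, n = 2 each). Plant enzymes of this family include the oxophytodienoate reductases, and the Arabidopsis reductase known for jasmonate synthesis is another member than the match of this contig. A lipoxygenase contig, unigene23790, was examined after its values had been seen. Its match, AT3G22400.1, is likewise not of the lipoxygenase type that feeds jasmonate synthesis in Arabidopsis. It had 11.1 CPM in T3 and 19.0 CPM in T6, against 0.275 CPM in L6 and 4.63 CPM in L7. It missed the members on the CPM minimum and on the fold, since its ratio was 2.39, and its Leiria plants were far apart.

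The contig unigene139733 was described as the leader of S-adenosylmethionine decarboxylase, the short upstream reading frame in the transcript of the enzyme that commits S-adenosylmethionine to polyamine synthesis, with the match AT5G15948.1. It had 20.9 CPM in T3 and 22.1 CPM in T6, against 5.33 CPM in L6 and 2.85 CPM in L7. The Tamrabta plants were nearly equal, and the Leiria plants differed by more than they did. A second contig with the same Arabidopsis match, unigene53182, was described as a fragment of the decarboxylase and had 3.43 CPM in T3 and 4.38 CPM in T6, against 1.13 CPM in L6 and 0.410 CPM in L7. Its ratio of 3.04 reached the fold, but L7 was under 1 CPM, so it was no member. It was chosen for mention after its values had been seen, and since both contigs share a match they could share reads.

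A pair of members shared the match AT5G06570.1. The contig unigene128920, described as a gibberellin receptor GID1-like protein, had 15.4 CPM in T3 and 23.5 CPM in T6, against 4.01 CPM in L6 and 1.73 CPM in L7. The contig unigene143836, described as an esterase, had 15.3 CPM in T3 and 14.1 CPM in T6, against 3.82 CPM in L6 and 2.31 CPM in L7. In both contigs L6 was above L7, and their T3 values were nearly the same. Gibberellin receptors of the GID1 type have the fold of carboxylesterases, and the description does not show which function either contig has. The sources used here do not say how reads that fit both contigs were counted.

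Other rows with a GID1 description, looked up after the values were known, did not share this pattern. The contig unigene1944 carried the same description as unigene128920 but matched AT5G23530.1, and it had 3.01 CPM in T3 and 4.09 CPM in T6, against 7.92 CPM in L6 and 9.64 CPM in L7. Its Leiria plants were both above its Tamrabta plants. The contig unigene7655, described as a putative GID1-like receptor of the pine family, had 99.1 CPM in T3 and 106.9 CPM in T6, against 57.9 CPM in L6 and 63.6 CPM in L7. It was higher in Tamrabta by 1.70 times in the means, well short of the fold.

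The contig unigene105542 was described as an O-methyltransferase of pines. It had 13.7 CPM in T3 and 24.9 CPM in T6, against 1.24 CPM in L6 and 4.10 CPM in L7. Its Leiria plants were 3.32 times apart, the widest difference between L7 and L6 among the members. A contig with the same protein match, unigene11023, stood the other way, at 7.39 CPM in T3 and 6.71 CPM in T6, against 11.7 CPM in L6 and 14.8 CPM in L7. Their Arabidopsis matches differ, AT1G62900.1 for unigene105542 and AT5G54160.1, the caffeate O-methyltransferase locus, for unigene11023.

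The contig unigene74794 was described as cell division cycle 20, a cofactor of the anaphase-promoting complex, which marks mitotic proteins for breakdown. It had 7.59 CPM in T3 and 6.16 CPM in T6, against 1.62 CPM in L6 and 1.27 CPM in L7, and it rested on 59 and 74 counts in the Leiria libraries. A mitotic kinase contig, unigene18094, described as cyclin-dependent kinase B1-1 and looked up after its values were known, had 1.72 CPM in T3 and 3.29 CPM in T6, against 9.13 CPM in L6 and 6.58 CPM in L7. The provenances thus stood in opposite orders in these cell cycle contigs. The remaining rows found by the same words, unigene8511 and unigene6145, overlapped or nearly overlapped between provenances, at 55.3 and 72.3 CPM for unigene8511 in Tamrabta and 71.6 and 73.7 CPM in Leiria, and at 67.9 and 78.5 CPM for unigene6145 in Tamrabta and 81.3 and 94.3 CPM in Leiria.

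**Figure D3:**
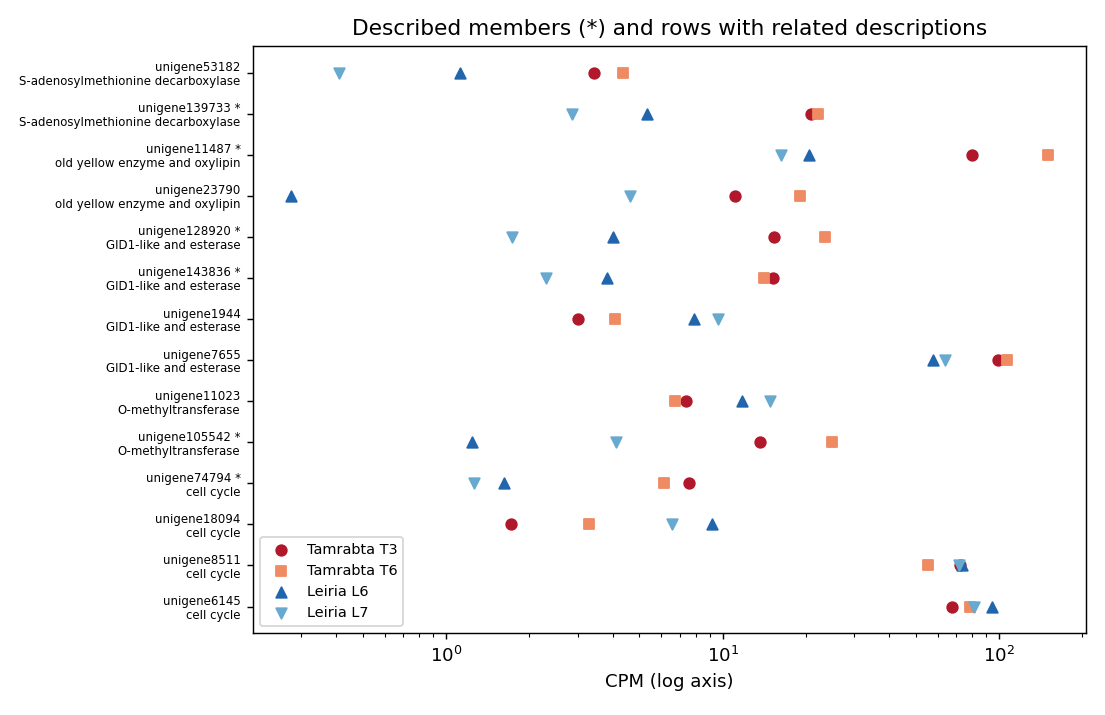
CPM (log axis) of the 6 described members, marked with a star, and of the 8 rows with related descriptions that have values, in Tamrabta T3 and T6 (red and orange) and Leiria L6 and L7 (blue). The members stand with Tamrabta to the right. The contigs unigene1944, unigene11023, unigene18094 and, by a narrow gap, unigene6145 stand with Leiria to the right, at 7.92 and 9.64 CPM in Leiria for unigene1944.

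The described members fell into broad word classes of the annotation, whose counts over all their rows in the table are given as a description. The counts include the members, and the described rows were preselected by the array ranking, so nothing about a class is read from them. Over the whole table, limma called 0.0455 percent of rows higher in Tamrabta and 0.108 percent higher in Leiria, 5.59 and 9.08 percent had an unadjusted p under 0.05 in those directions, and the exact test called 2.49 and 3.51 percent. Of 111 metabolism rows, which include unigene139733, limma called 1 higher in Tamrabta and 0 higher in Leiria, with 22 and 12 at an unadjusted p under 0.05 in those directions, and the exact test called 9 and 5. Of 18 rows for phenolics and terpenoids, which include unigene105542, limma called 0 in either direction, with 7 and 3 at an unadjusted p under 0.05, and the exact test called 4 and 1. Of 57 signalling rows, which include unigene128920, limma called 0, with 9 and 9 at an unadjusted p under 0.05, and the exact test called 1 and 2. The other 3 described members, unigene11487, unigene74794 and unigene143836, fell among 329 rows that no word class took, of which limma called 1 and 1, with 51 and 65 at an unadjusted p under 0.05, and the exact test called 20 and 23. The median log2 difference, Tamrabta minus Leiria, was 0.19 for metabolism, 0.47 for phenolics and terpenoids, 0.14 for signalling and -0.01 for the rows outside the word classes, beside 0.07 over all 808 described rows. Classes without a member, such as membrane transport with 45 rows and photosynthesis with 13, are not described further.

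Among the 33 members without an entry, several were abundant. The contig unigene32838 had 138.6 CPM in T3 and 163.9 CPM in T6, against 40.7 CPM in L6 and 35.6 CPM in L7, and it was the member with the highest Leiria level. The contig unigene44061 had 38.5 CPM in T3 and 100.2 CPM in T6, against 6.98 CPM in L6 and 9.09 CPM in L7. The contig unigene66485 had 47.8 CPM in T3 and 86.0 CPM in T6, against 6.16 CPM in L6 and 9.91 CPM in L7. In unigene44061 and unigene66485 T6 was above T3 and L7 above L6, while in unigene32838 L6 was above L7.

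The plants within a provenance differed more in the members than in the table as a whole. The Tamrabta plants were a median of 1.53 times apart in the members and 1.23 times apart over the 14597 rows. The Leiria plants were 1.29 times apart in the members and 1.15 times apart over all rows. The Tamrabta plants were further apart than the Leiria plants in 63.4% of members and 62.7% of all rows. T6 was above T3 in 29 of 41 members, 70.7%, and in 47.3% of all rows. T6 was at least 2 times T3 in 9 of 41 members and in 5.73% of all rows. T3 was at least 2 times T6 in 1 member, 2.44%, near the 3.20% of all rows. The median log2 ratio of T6 over T3 was 0.52 in the members and -0.03 over all rows, and that of L7 over L6 was -0.05 in the members and 0.00 over all rows. These values come from the libraries that chose the members and are given without a test.

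Rows chosen by the same fold in the opposite direction numbered 79 before any were set aside, against 47 in the Tamrabta direction. In those 79 rows T6 was at least 2 times T3 in 17, or 21.52%, against 9 of the 41 members, or 21.95%. The shares were thus nearly equal, and a T6 this far above T3 was not particular to the members. The Tamrabta plants were a median of 1.41 times apart in the 79 rows. T6 was above T3 in 51.9% of them, against 70.7% of the members. The share of the Tamrabta direction among the rows past the fold was 37.3%. It was 49.2%, with 61 and 63 rows, when each library was scaled to 1000000, which moved the median log2 difference of all rows to 0.13. After quantile normalization it was 44.8%, with 56 and 69 rows, and with DESeq2 size factors it stayed at 37.3%.

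**Figure D4:**
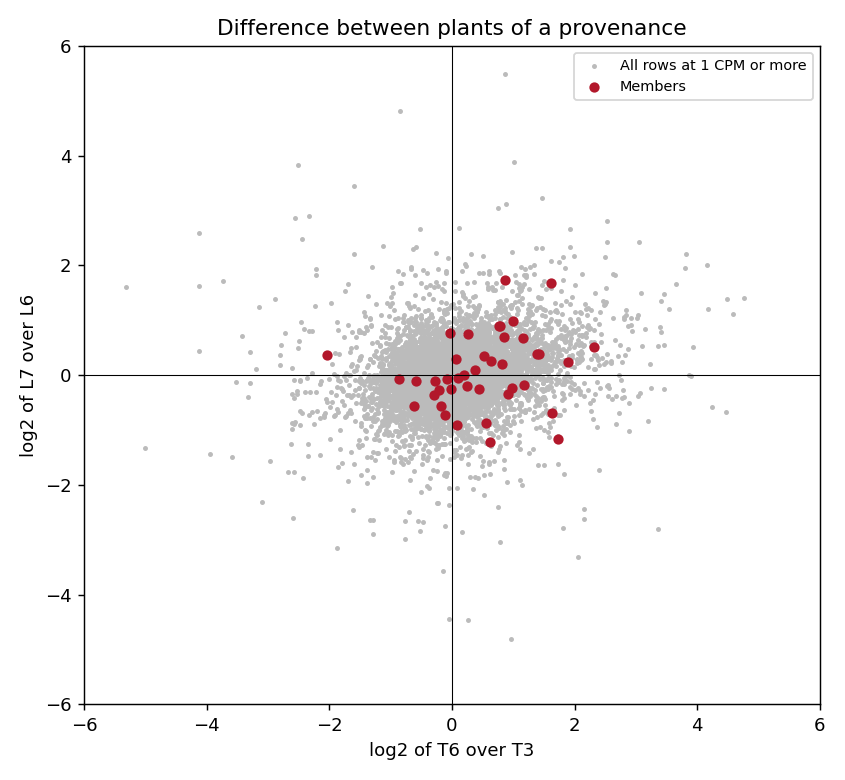
log2 of T6 over T3 (horizontal) against log2 of L7 over L6 (vertical) for the 14597 rows at 1 CPM or more in every library (grey) and the 41 members (red). 29 members lie to the right of 0, where T6 is the higher Tamrabta plant, and the members spread to both sides of 0 on the Leiria axis.

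The largest differences between the Tamrabta plants were in unigene33609, where T6 was 5.01 times T3, in unigene4021, at 3.73 times, and in unigene35364, an unassigned protein, at 3.32 times. The contig unigene4021 had 21.1 CPM in T3 and 78.6 CPM in T6, against 3.85 CPM in L6 and 4.55 CPM in L7, and unigene35364 had 7.94 CPM in T3 and 26.4 CPM in T6, against 2.45 CPM in L6 and 1.09 CPM in L7. In these contigs the lower Tamrabta plant still cleared both Leiria plants. The largest differences the other way were in unigene95218, at 19.0 CPM in T3 and 4.60 CPM in T6, against 1.07 CPM in L6 and 1.38 CPM in L7, followed by unigene1693 and by unigene47858, at 66.5 CPM in T3 and 43.5 CPM in T6, against 14.3 CPM in L6 and 9.61 CPM in L7. The Tamrabta plants differed by more than the ratio that separated them from Leiria in 2 of the 41 members. In 12 members they lay within 1.2 times of each other.

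L7 exceeded L6 by the most in unigene105542 and unigene45128, at 3.32 and 3.21 times, followed by unigene7190 at 1.98 times. In T3 and T6, unigene7190 had 15.4 and 30.7 CPM, against 2.17 and 4.31 CPM in L6 and L7. In the opposite order, L6 exceeded L7 by the most in unigene128920, unigene35364 and unigene139733, at 2.32, 2.24 and 1.87 times. Over the members L7 was above L6 in 19 and L6 above L7 in 22, so neither Leiria plant was the higher one throughout. Over the 14597 rows these counts were 7334 and 7263.

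The members nearest to 1 CPM in Leiria were unigene12181, unigene18855 and unigene95218. The contig unigene12181 had 4.46 CPM in T3 and 8.76 CPM in T6, against 1.18 CPM in L6 and 1.01 CPM in L7. The lowest count behind any member value was 39, for unigene95218 in L6, and its exact 95% Poisson interval of 27.7 to 53.3 counts covers counting error only. In Tamrabta no member had fewer than 207 counts in a library.

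Just inside the threshold were unigene801 at 6.08 CPM in T3 and 8.71 CPM in T6, against 1.57 CPM in L6 and 2.00 CPM in L7, unigene285 at 48.1 CPM in T3 and 108.8 CPM in T6, against 15.8 CPM in L6 and 14.0 CPM in L7, and unigene18578 at 7.35 CPM in T3 and 7.27 CPM in T6, against 2.39 CPM in L6 and 2.00 CPM in L7. Their ratios were 3.04, 3.04 and 3.04. Just outside were unigene18754, unigene42764 and unigene47772, with ratios of 2.97, 2.97 and 2.96. The most abundant of these, unigene47772, had 51.5 CPM in T3 and 92.8 CPM in T6, against 17.4 CPM in L6 and 16.3 CPM in L7. The boundary therefore passes through contigs of similar levels.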

How the data were processed

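Needle RNA of 4 plants was sequenced as paired-end libraries. The authors trimmed the reads, mapped concordant pairs to assembled contigs with Bowtie2, counted them, and deposited a signal for each contig, the CPM scaled by edgeR. Versions of Bowtie2 and edgeR were not found in the sources used here. Every value was a whole multiple of the CPM of 1 count, so dividing by it recovered the counts, and 100% came out whole to within 0.01.

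The members and lists were chosen with earlier results of these data known. Provenances were compared with limma 3.58.1 in R 4.3.3, with an intensity trend, on log2(CPM + 0.5), which understates the change of low contigs, over 17571 rows with Benjamini-Hochberg adjustment. Calls needed an adjusted p under 0.05 and a difference of more than 1 in either direction. Tests on the recovered counts used edgeR 4.0.16 and DESeq2 1.42.0. The procedures were run on simulated data. The simulated tests used large changes and the same spread in every row, so they do not show how the tests perform on these libraries. Named were the described members, the 10 largest ratios, the 10 highest Tamrabta levels, the 3 members and 3 rows nearest the fold, the 3 largest differences within each provenance in each direction, and the 3 members lowest in Leiria. Related rows were chosen after their values were seen. Descriptions came from the first 1791 rows held of an annotation table, whose values were not used. There were 10 identifiers on 2 rows each, with 0 members among them. Counting error alone set the intervals.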

Additional observations from a re-analysis of the deposited data

How the results depend on the processing

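The number of members depended on the rule. It was 156 at a fold of 2, 14 at a fold of 4, and 66, 24 and 11 at a CPM minimum of 0.5, 2 and 5, against 41. It was 55 with each library summed to 1000000, with 40 of the 41 members kept, 50 after quantile normalization with 39 kept, 41 with DESeq2 size factors, 30 with 0.5 CPM added, and 47 with no rows set aside. Leaving out 1 library gave 87 to 182 (182 without T3, 87 without T6, 104 without L6 and 122 without L7), since a rule on fewer values is easier to meet.

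Limma called 8 rows higher in Tamrabta. The edgeR exact test called 437, DESeq2 456 and the quasi-likelihood test 1, and limma called 2 at a mean CPM of at least 5. With the replicate block limma called 4, of which 3 were among the 8. The sources used here name no pairing or batch behind the replicate numbers, and whether they reflect one is not known. Deviations of same-numbered libraries had r = 0.23 over 11218 rows. Leaving out 1 library gave 0 to 8 calls: 0 without L6, L7 or T3, and 8 without T6, 4 of them shared. The cause was not tested.

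The median log2 ratio of the members, 2.39, stayed between 2.18 and 2.57 in the settings tried, and that of T6 over T3, 0.52, between 0.40 and 0.69. The members were chosen for the provenance contrast and were not chosen anew in each setting. The range of 2.18 to 2.57 is therefore no measure of stability. The T6 over T3 ratio with DESeq2 size factors and the split of the rows past the fold under other scalings were added after the data were seen. Of 328 single-member differences, from 8 alternatives each, 57 moved by more than the spread of the Tamrabta plants. Leaving out 1 Tamrabta library always shifts a member by less than that spread. The alternatives of this kind are among the 328 but could not count as moved. That spread rests on 2 values and leaves out Leiria. It was 0.0105 in unigene18578 and 1.63 in unigene33609, so a small shift counts in some members and not in others. The sign of the 328 differences was fixed by the choice of members and is no measure of stability.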
